A study of Mus musculus with 12 samples.

Results

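The Krüppel-like factor genes Klf2, Klf3, Klf4, Klf5, Klf6, Klf7, Klf9, Klf10, Klf13 and Klf15 were read in mouse ES cells and in XEN-like cells derived from them, in 2 Sox7 genotypes. A probe was taken when its gene name equalled one of these 10 names, which gave 12 of the 55681 probes on the array, and 10 of the 34836 gene names. The scanner software called 11 of these 12 probes well above background throughout at least 1 group, and the other, a Klf13 probe, was above background on no array. The genes were chosen by their log2 difference with dexamethasone, which was known when they were proposed, so that response is described below without a test. The differences between the genotypes within ES cells and within XEN-like cells were not part of the choice and were tested. The difference between the genotypes in the response to dexamethasone was also tested. It is built from responses that were already known, so its p-values are not independent of the choice.

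Klf proteins are transcription factors that bind GC-rich and CACCC-type boxes in promoters through zinc fingers at their carboxy terminus, a region they share with the Sp factors. Klf2, Klf4 and Klf5 act in ES cells to keep the pluripotent state, where Klf4 lies downstream of Lif and Stat3. Klf3, Klf8 and Klf12 are repressors that recruit the corepressor Ctbp, Klf9, Klf10 and Klf13 recruit Sin3a, and Klf9 is a classical target of the glucocorticoid receptor.

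All cells descended from the EB3 line of mouse ES cells, in which Sox7, a Sox family gene of primitive endoderm, had been targeted. The Sox7 (+/−) cells were 1 clone in which 1 allele of Sox7 was replaced by a drug selection cassette, and the Sox7 (−/−) cells were derived from it by selection in a high dose of puromycin. Both genotypes carried Gata6-GR, a fusion of the endoderm factor Gata6 with the ligand-binding domain of the glucocorticoid receptor, expressed from a CAG promoter on a piggyBac vector, so that dexamethasone (Dex) switched it on. The 4 groups were Sox7 (+/−) ES cells without Dex, Sox7 (+/−) XEN-like cells with Dex, Sox7 (−/−) ES cells without Dex and Sox7 (−/−) XEN-like cells with Dex, each collected at day 4 and measured on 3 arrays. The medium in which the ES lines were kept and the medium with Dex both contained Lif. No group had Dex without Gata6-GR, so the action of Gata6-GR and that of Dex on the cells' own glucocorticoid receptor cannot be told apart. Each genotype was 1 line, so genotype and line cannot be told apart either.

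The source labels of the 3 Sox7 (+/−) ES arrays all give replicate 1 while their titles number them 1 to 3, and no label says that replicates were separate cultures, so the p-values measure the spread between arrays. The fit holds 1 spread per probe, shared by the 4 groups. The SE and p-values of an ES comparison therefore also carry the spread of the XEN-like arrays. The probe for Sox7 had signals of 2.26, 2.19 and 2.30 in Sox7 (+/−) ES cells and 4.91, 4.96 and 6.90 in Sox7 (+/−) XEN-like cells, in multiples of the 75th percentile of the array's signals, the scale of all signals below. It was not well above background on any Sox7 (−/−) array, at least 24.7-fold lower in ES cells and at least 73.5-fold lower in XEN-like cells (limma, adjusted p = 1.3e-08 and 7.4e-09). Marker lists moved with both Dex and genotype. The summed signal of 5 ES markers was 184.2 to 189.9 in Sox7 (+/−) and 317.1 to 332.8 in Sox7 (−/−) ES cells, and 4.35 to 6.22 and 9.56 to 12.9 in the XEN-like cells, where Sox2 and Nanog were not well above background on any array. That of 8 extraembryonic endoderm markers was 397 to 412.2 and 301.3 to 331.8 in the ES cells and 1151 to 1247 and 1066 to 1110 in the XEN-like cells, in the same order of genotypes. Most of this sum was Lama1, with mean signals of 295.2 and 221.5 in the ES cells and 726.8 and 592.1 in the XEN-like cells. The median log2 difference of the 8 markers, Sox7 (−/−) minus Sox7 (+/−), was −0.24 in ES cells and 0.11 in XEN-like cells. For 6 trophectoderm markers the summed signal was 8.16 to 8.40 in Sox7 (+/−) ES cells, 2.16 to 2.91 in Sox7 (+/−) XEN-like cells, 4.21 to 4.46 in Sox7 (−/−) ES cells and 5.50 to 6.17 in Sox7 (−/−) XEN-like cells. The part of these shifts in the Klf values was not tested. Replicate 3 of the Sox7 (+/−) XEN-like cells stood apart, with a Pearson's r across probes of 0.984 to the mean of the other 2 arrays of its group and a median log2 gap of 0.27 from it, against 0.992 to 0.997 and 0.08 to 0.18 for the other 11 arrays, and values that rest on it are given with and without it. The Sox7 (−/−) ES arrays and replicate 1 of the Sox7 (−/−) XEN-like cells shared slide 1, and the other 8 arrays shared slide 2, so the ES comparison of the genotypes is separable from the slide only through the Sox7 (−/−) XEN-like arrays. In bulk RNA, fewer cells with a transcript and less of it per cell cannot be told apart.

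The array's probes are 60 bases long, and since the Klf family shares its zinc finger sequence, the 20 probes named for 17 Klf genes were compared with each other. No run of 20 bases in any of them occurred in a probe of another gene name. Of the 186 pairs of probes for different Klf genes, the most alike were the probe for Klf5 and the brighter probe for Klf13, in which 29 of 40 overlapping bases (72.5%) were the same, against 59.3% for the next pair. They are shown, with the shared bases in capitals.
Klf13 probe: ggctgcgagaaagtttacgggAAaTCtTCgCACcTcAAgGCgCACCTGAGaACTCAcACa
Klf5 probe: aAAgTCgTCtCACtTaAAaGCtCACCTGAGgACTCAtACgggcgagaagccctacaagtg
On mm9 the Klf5 probe covers chr14:99702656-99712388, a span of 9733 bases that therefore crosses an intron, and the Klf13 probe covers chr7:71082854-71082913. The Klf5, Klf12 and Sox7 probes all lie on chromosome 14, the chromosome of the targeted allele.

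**Figure D1:**
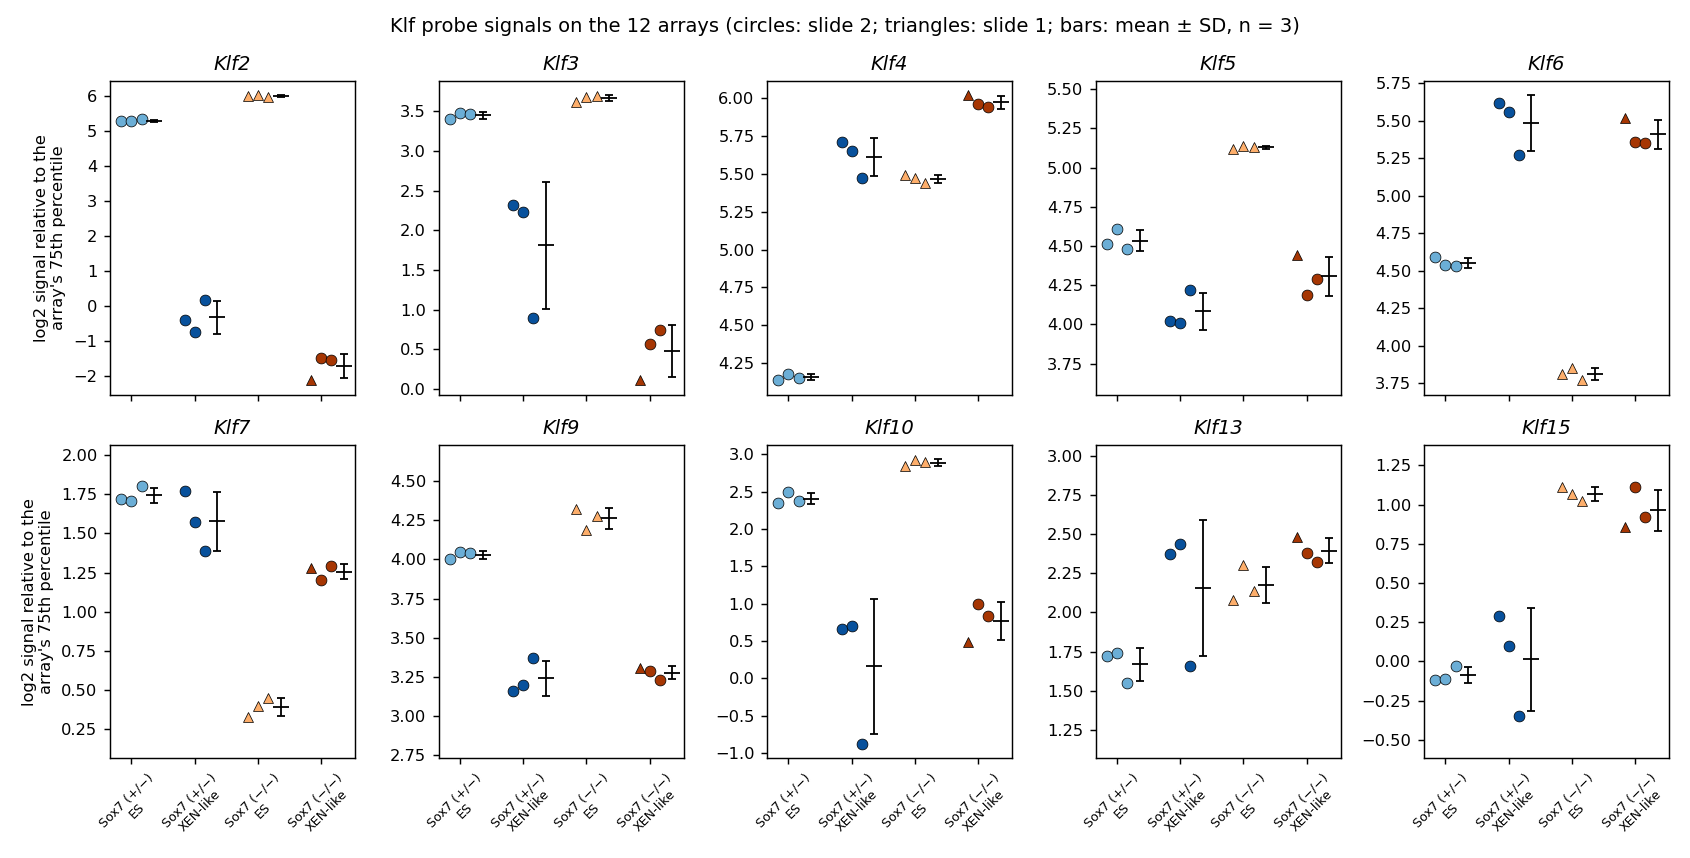
Log2 signal of the 10 Klf genes (brightest probe of each) relative to the array's 75th percentile, with 1 point per array, circles for slide 2 and triangles for slide 1, and bars for the mean ± SD of 3 arrays. Each panel has its own scale, so levels are compared within a gene only. Klf2 is far lower in both XEN-like groups and Klf4 is lowest in Sox7 (+/−) ES cells. Replicate 3 of the Sox7 (+/−) XEN-like cells lies below the other 2 arrays of its group for Klf3, Klf4, Klf6, Klf7, Klf10, Klf13 and Klf15. It lies above them for Klf2, Klf5 and Klf9.

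Among the factors of the pluripotent state, Klf2 lost nearly all its signal with Dex, Klf4 gained signal and Klf5 lost some, in both genotypes. In ES cells all 3 were higher without Sox7, as was the summed signal of the 5 ES markers. In XEN-like cells Klf2 was lower and Klf4 higher without Sox7.

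Klf2 (probe at chr8:74845137-74845196, mm9) had signals of 39.2, 39.2 and 40.6 in Sox7 (+/−) ES cells and of 0.77, 0.60 and 1.12 in Sox7 (+/−) XEN-like cells. Without Sox7, they were 64.3, 65.4 and 63.5 in ES cells and 0.23, 0.36 and 0.34 in XEN-like cells, still well above background on all 3 arrays. The 4 groups followed one another without overlap, upward from Sox7 (−/−) XEN-like through Sox7 (+/−) XEN-like and Sox7 (+/−) ES to Sox7 (−/−) ES cells. With Dex the log2 signal differed by −5.63 with 1 Sox7 allele and −7.73 with none, a 49.6-fold and a 212-fold fall. These values were −5.32 and −6.88 with normexp, and −5.8 and −7.06 in the deposited table, which is not scaled between arrays. Between genotypes Klf2 was higher by 0.70 ± 0.22 (log2, SE) in Sox7 (−/−) ES cells, which passed the adjusted p but not the 2-fold limit (limma, adjusted p = 0.024) and missed the former in 9 of 21 alternatives (adjusted p from 0.053 to 0.088), among them spike-in scaling (0.55) and leaving out any 1 ES array. With the slide as a block this difference was 1.30 and past both limits (adjusted p = 0.038), a value that rests on replicate 1 of the Sox7 (−/−) XEN-like cells against the other 2. The log2 SD of Klf2 was 0.03 and 0.02 in the Sox7 (+/−) and Sox7 (−/−) ES groups. It was 0.46 and 0.35 in the XEN-like groups, and the fit shares 1 spread among all groups. In XEN-like cells Klf2 was lower, at −1.40 ± 0.22 without Sox7 (adjusted p = 0.001), and at −1.15 without replicate 3 of the Sox7 (+/−) cells. Between the 5 XEN-like arrays of slide 2 it was −1.20 (adjusted p = 0.015), and it came under the 2-fold limit with normexp at −0.96 and as deposited at −0.66.

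Klf4 (chr4:55540167-55540226) had signals of 17.6, 18.1 and 17.8 in Sox7 (+/−) ES cells and of 52.4, 50.2 and 44.3 in Sox7 (+/−) XEN-like cells. The Sox7 (−/−) signals were 45.1, 44.3 and 43.5 in ES cells and 64.9, 62.2 and 61.3 in XEN-like cells. Sox7 (+/−) ES cells were lowest and Sox7 (−/−) XEN-like cells highest, while the other two groups overlapped. The Dex difference (log2) was 1.45 with 1 Sox7 allele and 0.50 with none. Scaled by the spike-in controls it was 0.97 and 0.42, and as deposited, 0.98 and 0.45. In ES cells Klf4 was 2.48-fold higher without Sox7 (log2 1.31 ± 0.07, adjusted p = 6.2e-07, called), and the difference was 1.24 with the slide as a block (adjusted p = 0.00051). Among XEN-like cells the genotypes differed by 0.36 ± 0.07 (adjusted p = 0.0038), under the 2-fold limit.

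Klf5 had signals of 22.8, 24.5 and 22.4 in Sox7 (+/−) ES cells and of 16.2, 16.2 and 18.6 in Sox7 (+/−) XEN-like cells. Those of Sox7 (−/−) cells were 34.7, 35.3 and 35.0 in ES cells and 21.8, 18.2 and 19.5 in XEN-like cells. Sox7 (−/−) ES cells were highest and Sox7 (+/−) ES cells next, and the 2 XEN-like groups overlapped. Between +Dex and −Dex the log2 difference was −0.45 with 1 Sox7 allele and −0.82 with none. In ES cells Klf5 was higher by 0.60 ± 0.08 without Sox7 (adjusted p = 0.00039), and by 0.39 with the slide as a block, which missed the threshold (adjusted p = 0.10). In XEN-like cells the difference of 0.22 ± 0.08 did not pass (adjusted p = 0.066, 95% interval 0.03 to 0.41 before adjustment). It passed in 5 of 22 alternatives, at 0.29 without replicate 3 of the Sox7 (+/−) cells (adjusted p = 0.019), 0.47 with spike-in scaling (adjusted p = 0.0073) and 0.68 in the deposited table (adjusted p = 0.002).

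The stretches of the Klf2 and Klf4 promoters are shown because these genes had opposite differences with Dex. RefSeq windows of 300 bases on GRCm38.p6, from 250 bases before to 50 after the start of the gene, matched 8 of the 10 genes by symbol, all but Klf5 and Klf10. The 250 bases before the start of Klf2 (chr8:72318812-72319061, plus strand) and of Klf4 (chr4:55532476-55532725, minus strand) are given 5′ to 3′, with GC boxes (GGGCGG), the Klf and Sp type box (GGGNGNGGG) and the MEF2 box in capitals on either strand. GC boxes and Klf and Sp type boxes can share bases.
Klf2 promoter: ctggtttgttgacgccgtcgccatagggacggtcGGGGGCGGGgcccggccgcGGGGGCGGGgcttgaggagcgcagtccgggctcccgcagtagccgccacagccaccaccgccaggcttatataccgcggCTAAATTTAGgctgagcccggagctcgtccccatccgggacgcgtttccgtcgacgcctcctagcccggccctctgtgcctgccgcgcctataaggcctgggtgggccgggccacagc
Klf4 promoter: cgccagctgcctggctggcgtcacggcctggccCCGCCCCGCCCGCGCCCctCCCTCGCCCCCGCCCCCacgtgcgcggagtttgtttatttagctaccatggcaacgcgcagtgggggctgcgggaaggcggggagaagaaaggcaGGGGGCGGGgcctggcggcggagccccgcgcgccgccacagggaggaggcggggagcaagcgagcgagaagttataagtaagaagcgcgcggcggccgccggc
Klf2 held 2 GC boxes, 2 Klf and Sp type boxes that contain them, and a MEF2 box from 118 to 109 bases before the start. Klf4 held 4 GC boxes, 5 Klf and Sp type boxes and no MEF2 box. These motifs belong to a set of 20 that was searched on both strands of all 32851 windows, chosen with the array results known. The windows of the Klf genes were 58.3% to 76.7% G and C (median 70.7%), against a median of 52.7% for all windows. GGGCGG was in 7 of the 8 windows (35.7% of all windows), GGGNGNGGG in 6 (28.1%), TGACG in 6 (20.8%), CCAAT in 4 (37.4%) and CACGTG in 3 (7.15%). The MEF2 box was in that of Klf2 (1.86% of all), TTCNNNGAA in that of Klf9 (8.3%) and ACAATG in that of Klf13 (12.6%). The other 12 were in none of the 8, with the share of all windows in parentheses: the full glucocorticoid response element (0.00913%), its arm AGAACA (19%), CCACACCC (3.56%), the Gata motifs AGATAA (11.2%) and TGATAA (9.05%), TGACGTCA, which contains TGACG (1.79%), TTCCNGGAA, a special case of TTCNNNGAA (1.15%), TATAAA (13.6%), ATGCAAAT (1.74%), the CArG box (1.63%), ACAAAG (18.7%) and TCAAGGTCA (0.423%). A match describes these letters in this window and is not a bound site.

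Of the Ctbp-recruiting repressors, Klf3 had less signal with Dex in both genotypes and was lower without Sox7 in XEN-like cells. Klf3 (chr5:65221309-65221368, mm9) had signals of 10.6, 11.2 and 11.0 in Sox7 (+/−) ES cells and of 4.98, 4.70 and 1.86 in Sox7 (+/−) XEN-like cells. Arrays of Sox7 (−/−) cells gave 12.3, 12.8 and 12.9 in ES cells and 1.08, 1.48 and 1.68 in XEN-like cells. The 2 XEN-like groups did not overlap, but replicate 3 of the Sox7 (+/−) cells, at 1.86, lay close to the Sox7 (−/−) arrays. With Dex the log2 signal differed by −1.63 in Sox7 (+/−) cells, or −1.17 without that array, and −3.19 in Sox7 (−/−) cells. In XEN-like cells Klf3 was lower, at −1.34 ± 0.32 without Sox7 (adjusted p = 0.01, called), and at −1.80 without that array (adjusted p = 3.5e-05). On the arrays of slide 2 it was −1.16 and missed the threshold (adjusted p = 0.084), and as deposited it was −0.83, under the 2-fold limit. In ES cells the difference of 0.22 ± 0.32 did not pass (adjusted p = 0.61, 95% interval −0.50 to 0.93), though the ES groups did not overlap. The log2 SD of Klf3 was 0.04 in each ES group, against 0.80 and 0.33 in the Sox7 (+/−) and Sox7 (−/−) XEN-like groups, which share the spread of the fit.

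Klf6 and Klf7 form a pair of closely related activators, and both were lower in ES cells without Sox7. Klf6 (chr13:5869371-5869430) had signals of 24.1, 23.3 and 23.1 in Sox7 (+/−) ES cells and of 49.2, 47.2 and 38.6 in Sox7 (+/−) XEN-like cells. With both alleles lost, they were 14.1, 14.5 and 13.6 in ES cells and 45.9, 41.1 and 40.7 in XEN-like cells. Sox7 (−/−) ES cells were lowest and Sox7 (+/−) ES cells next, and the XEN-like groups overlapped. The Dex difference (log2) was 0.93 with 1 Sox7 allele and 1.60 with none. In ES cells Klf6 was lower, at −0.74 ± 0.09 without Sox7 (adjusted p = 0.00019), under the 2-fold limit, and in XEN-like cells the difference was −0.07 ± 0.09 (adjusted p = 0.57, 95% interval −0.28 to 0.14).

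Klf7 (chr1:64082265-64082324) had signals of 3.28, 3.28 and 3.49 in Sox7 (+/−) ES cells and of 3.41, 2.97 and 2.62 in Sox7 (+/−) XEN-like cells. For the Sox7 (−/−) arrays they were 1.26, 1.32 and 1.37 in ES cells and 2.43, 2.30 and 2.44 in XEN-like cells. The 2 Sox7 (−/−) groups were lowest, did not overlap each other or the Sox7 (+/−) groups, and the latter overlapped. Between +Dex and −Dex the log2 difference was −0.17 with 1 Sox7 allele and 0.86 with none. In ES cells Klf7 was 2.55-fold lower without Sox7 (log2 −1.35 ± 0.09, adjusted p = 3.4e-06, called), and −1.39 with the slide as a block (adjusted p = 0.0014). In XEN-like cells the difference was −0.32 ± 0.09 (adjusted p = 0.023), but 0.09 in the deposited table (adjusted p = 0.68), and it missed the threshold in 6 of 22 alternatives.

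Of the Sin3a-recruiting factors, Klf9 and Klf10 had less signal with Dex in both genotypes, and Klf13 had more by the 75th percentile scaling. Klf9 (chr19:23240410-23240469) had signals of 15.98, 16.6 and 16.4 in Sox7 (+/−) ES cells and of 8.92, 9.18 and 10.3 in Sox7 (+/−) XEN-like cells. Without Sox7, they were 19.98, 18.2 and 19.4 in ES cells and 9.93, 9.76 and 9.41 in XEN-like cells. The ES groups lay above both XEN-like groups, which overlapped. With Dex the log2 signal differed by −0.79 with 1 Sox7 allele and −0.98 with none. These values passed 2-fold with spike-in scaling (−1.27 and −1.07) and in the deposited table (−1.25 and −1.01). Without Sox7, Klf9 was higher in ES cells by 0.23 ± 0.07 (adjusted p = 0.023), which missed the threshold in 10 of 21 alternatives, among them spike-in scaling (0.08, adjusted p = 0.64) and the slide as a block (0.18, adjusted p = 0.42). In XEN-like cells the difference was 0.04 ± 0.07 (adjusted p = 0.72, 95% interval −0.12 to 0.20), but 0.50 in the deposited table (adjusted p = 0.018).

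Klf10 (chr15:38224255-38224314), an early gene of transforming growth factor β signalling, had signals of 5.11, 5.63 and 5.20 in Sox7 (+/−) ES cells and of 1.58, 1.62 and 0.54 in Sox7 (+/−) XEN-like cells. The Sox7 (−/−) signals were 7.16, 7.62 and 7.46 in ES cells and 1.40, 1.98 and 1.79 in XEN-like cells. Both ES groups lay above both XEN-like groups, which overlapped. The Dex difference (log2) was −2.25 in Sox7 (+/−) cells, or −1.73 without replicate 3, and −2.12 in Sox7 (−/−) cells. The genotypes differed by 0.48 ± 0.35 in ES cells (adjusted p = 0.28) and by 0.61 ± 0.35 in XEN-like cells (adjusted p = 0.19), neither past the threshold. The ES groups did not overlap. The log2 SD of Klf10 was 0.07 and 0.05 in the ES groups and 0.90 and 0.26 in the XEN-like groups, Sox7 (+/−) first. Without replicate 3 of the Sox7 (+/−) XEN-like cells the ES difference, still 0.48, passed (adjusted p = 0.006), while the XEN-like difference was 0.10. In the deposited table the latter was 0.94 (adjusted p = 0.0004).

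Klf13 was read by its brighter probe, with signals of 3.29, 3.33 and 2.94 in Sox7 (+/−) ES cells and of 5.18, 5.42 and 3.17 in Sox7 (+/−) XEN-like cells. Those of Sox7 (−/−) cells were 4.23, 4.91 and 4.40 in ES cells and 5.58, 5.21 and 5.01 in XEN-like cells. Replicate 3 put the Sox7 (+/−) XEN-like group across the range of both ES groups. Between +Dex and −Dex the log2 difference was 0.49 in Sox7 (+/−) cells, 0.74 without replicate 3 and −0.01 in the deposited table, and 0.22 in Sox7 (−/−) cells. A second probe gave 0.69 and 0.32. In ES cells Klf13 was higher by 0.50 ± 0.18 without Sox7 (adjusted p = 0.041), and by 0.40 ± 0.14 with the second probe (adjusted p = 0.043), but the first missed the threshold in 14 of 21 alternatives (adjusted p from 0.053 to 0.51). In XEN-like cells the difference of 0.24 ± 0.18 did not pass (adjusted p = 0.32), except in the deposited table at 0.69 (adjusted p = 0.0031).

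Klf15 (chr6:90425144-90425203), a regulator of amino acid and glucose metabolism that is also induced by glucocorticoids in several tissues, differed by genotype and hardly by Dex. Its signals were 0.92, 0.93 and 0.98 in Sox7 (+/−) ES cells and 1.23, 1.07 and 0.78 in Sox7 (+/−) XEN-like cells. Arrays of Sox7 (−/−) cells gave 2.16, 2.09 and 2.03 in ES cells and 1.81, 2.16 and 1.89 in XEN-like cells. The 2 groups of each genotype overlapped each other and lay apart from those of the other genotype. With Dex the log2 signal differed by 0.10 with 1 Sox7 allele and −0.11 with none, and the first was −0.38 with spike-in scaling. Without Sox7, Klf15 was 2.22-fold higher in ES cells (log2 1.15 ± 0.14, adjusted p = 0.00016, called, but not over 2-fold with spike-in scaling) and 1.93-fold higher in XEN-like cells (0.95 ± 0.14, adjusted p = 0.00084), the latter past the 2-fold limit with spike-in scaling at 1.19 and in the deposited table at 1.25. This XEN-like difference was 0.76 without replicate 3 of the Sox7 (+/−) cells (adjusted p = 0.00024), 1.09 without replicate 1 and 0.86 with normexp.

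**Figure D2:**
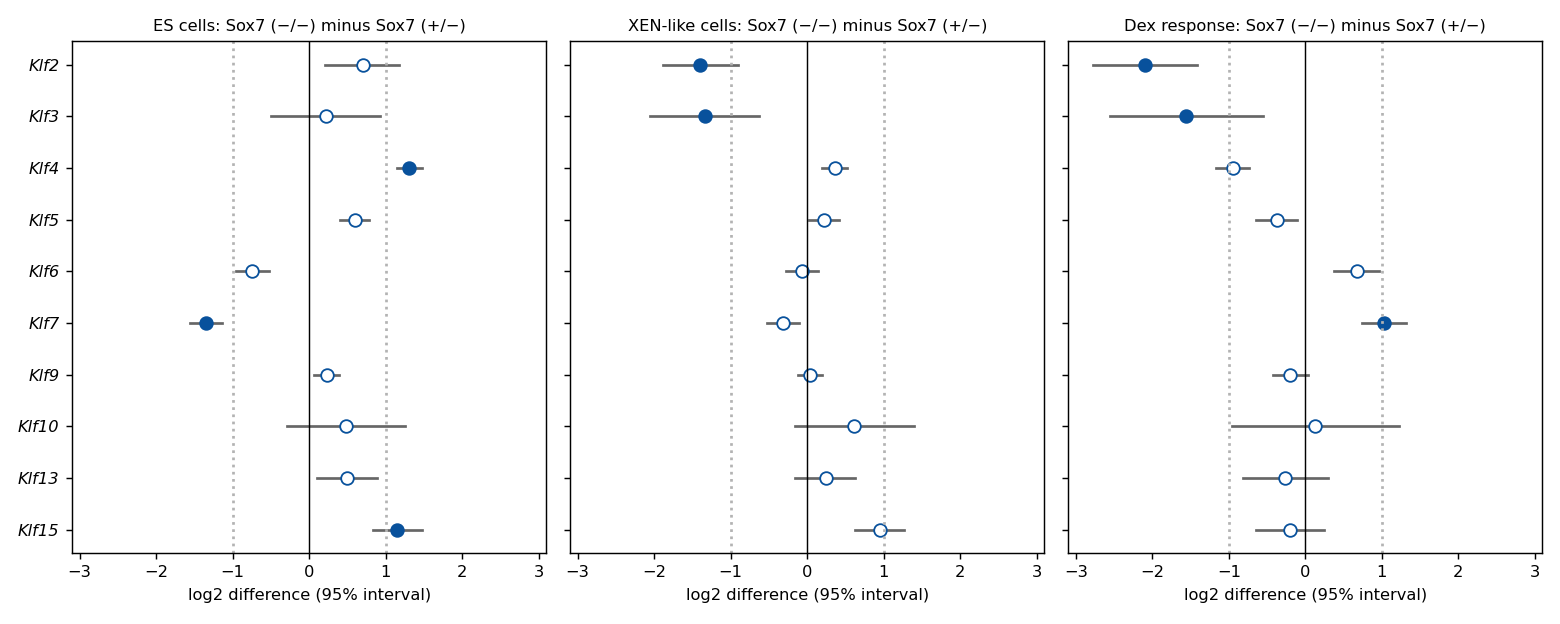
Log2 differences of the 10 Klf genes between Sox7 (−/−) and Sox7 (+/−) cells in ES cells (left), XEN-like cells (middle) and in their Dex response (right), with 95% intervals from the limma fit. Filled points passed an adjusted p of 0.05 and the 2-fold limit (dotted lines at −1 and 1). Klf4, Klf7 and Klf15 passed in ES cells, Klf2 and Klf3 in XEN-like cells and Klf2, Klf3 and Klf7 in the difference of the responses. The values on the right are built from Dex differences that were known when the genes were chosen.

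Over the 10 genes, 3 were called between the genotypes in ES cells, 2 higher and 1 lower, where 8.62% of the 25940 probes tested were called, 1.94% higher and 6.67% lower. An adjusted p under 0.05 of any size was reached by 8 (45.1% of all probes), and the groups of all 10 did not overlap (65.2% of all). The median log2 difference was 0.49 for the 10 genes and 0.10 for all probes. In XEN-like cells 2 genes were called, both lower (7.51% of all probes, 3.87% higher and 3.64% lower), 5 had an adjusted p under 0.05 (34.5%) and 5 did not overlap (46.1%), with medians of 0.13 and 0.00. Scaling by the spike-in controls moved the median of all probes in XEN-like cells to 0.24 and the deposited table moved it to 0.34, and Klf6 and Klf7 then changed sign or came close to 0. Probes called higher and lower in XEN-like cells numbered 1004 and 944, against 1618 and 499 with spike-in scaling and 1164 and 131 in the deposited table. Deposited values are not scaled between arrays. The 75th percentile of signals was 251.8 to 273.6 intensity units on Sox7 (+/−) and 347.2 to 368.7 on Sox7 (−/−) XEN-like arrays.

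**Figure D3:**
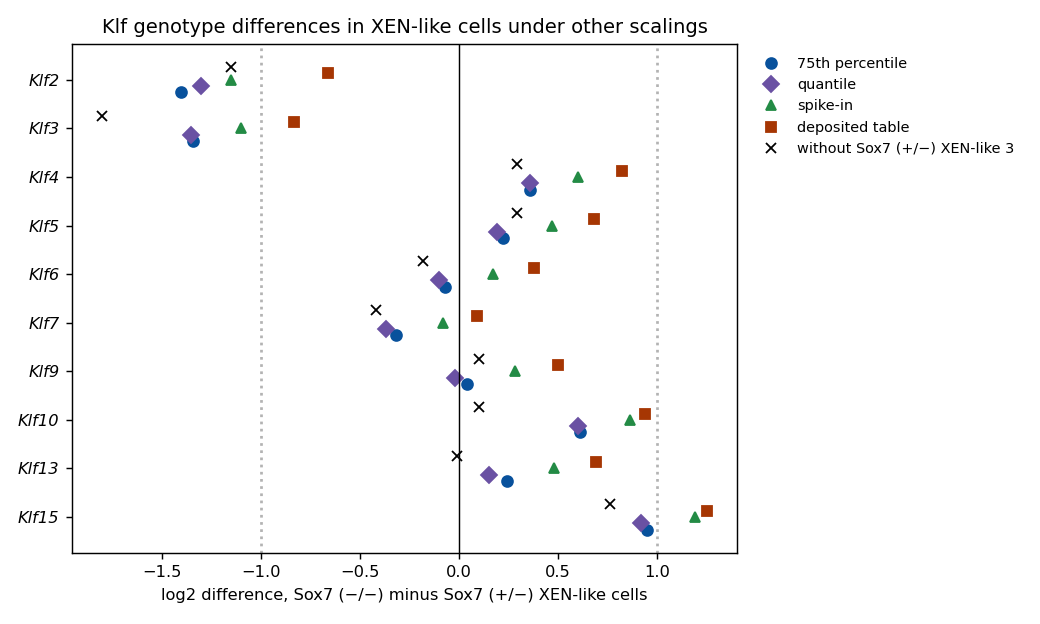
Genotype difference (log2, Sox7 (−/−) minus Sox7 (+/−)) of the 10 Klf genes in XEN-like cells under the 75th percentile, quantile and spike-in scalings, in the deposited table (not scaled between arrays), and without replicate 3 of the Sox7 (+/−) XEN-like cells. Klf2 and Klf3 are below 0 and Klf4, Klf5, Klf10 and Klf15 above 0 in all 5, while Klf6, Klf7, Klf9 and Klf13 change sign.

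Whether loss of Sox7 altered the response to Dex was asked by setting the Dex difference of Sox7 (−/−) cells against that of Sox7 (+/−) cells. Both Dex differences were known when the genes were chosen, so the p-values here are not independent of that choice. The difference in response was called for 3 of the 10 genes, 1 higher and 2 lower (9.8% of all probes, 6.64% higher and 3.16% lower), 6 had an adjusted p under 0.05 (27.2%), and the medians were −0.23 for the genes and −0.09 for all probes. Klf2 fell more without Sox7, by −2.09 ± 0.31 (adjusted p = 0.00083), by −1.56 with normexp and by −1.26 in the deposited table. It was −1.85 without replicate 3 of the Sox7 (+/−) XEN-like cells. Klf3 also fell more, by −1.56 ± 0.45 (adjusted p = 0.029), or by −2.02 without that array. The Klf3 call was lost when any of 9 of the 12 arrays was left out (adjusted p from 0.054 to 0.064) and with spike-in scaling (−1.16, adjusted p = 0.15). Klf7 had a more positive response without Sox7, by 1.03 ± 0.13 (adjusted p = 0.00035). It came under the 2-fold limit with normexp, at 0.98, and without replicate 3 of the Sox7 (+/−) XEN-like cells, at 0.94. The rise of Klf4 was smaller without Sox7, by −0.95 ± 0.10 (adjusted p = 1e-04), a value just under the 2-fold limit that was −1.02 without that array. Scaled by the spike-in controls it was −0.56 and in the deposited table −0.53, and both missed the threshold (adjusted p = 0.093 and 0.14). Klf6 rose more without Sox7, by 0.67 ± 0.13 (adjusted p = 0.005), and by 1.06 with spike-in scaling. Klf5 differed by −0.37 ± 0.12 (adjusted p = 0.043), which missed the threshold in 16 of 21 alternatives and turned to 0.02 with spike-in scaling and to 0.15 in the deposited table. For Klf9, Klf10, Klf13 and Klf15 the differences of −0.20, 0.13, −0.26 and −0.20 did not pass (adjusted p from 0.18 to 0.87). Without replicate 3 of the Sox7 (+/−) XEN-like cells Klf13 at −0.51 and Klf15 at −0.39 passed (adjusted p = 0.01 and 0.035), and Klf10 turned to −0.38.

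**Figure D4:**
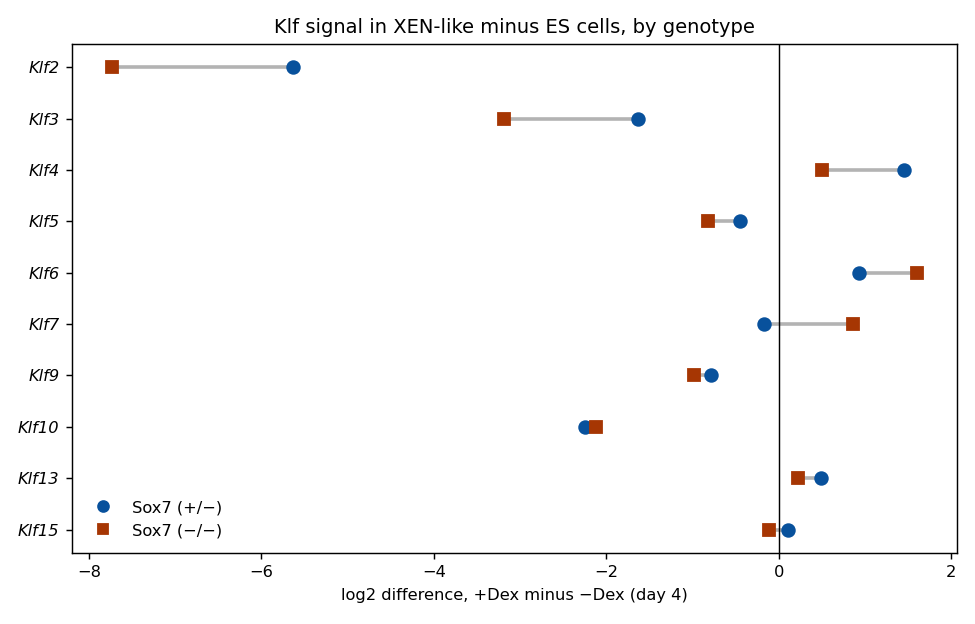
Log2 difference of the 10 Klf genes between XEN-like cells with Dex and ES cells without Dex at day 4, in Sox7 (+/−) cells (circles) and Sox7 (−/−) cells (squares), joined by a line. These values were known when the genes were chosen and carry no test. Klf2, Klf3, Klf5, Klf9 and Klf10 lie below 0 and Klf4, Klf6 and Klf13 above 0 in both genotypes.

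By size alone, 4 of the 10 genes differed over 2-fold with Dex in each genotype, 1 upward and 3 downward. In Sox7 (+/−) cells these were Klf4 and then Klf2, Klf3 and Klf10, and in Sox7 (−/−) cells Klf6 and then the same 3. Over all probes 25.5% and 29.4% differed that much in the 2 genotypes, 11.3% and 14.8% upward and 14.3% and 14.6% downward. With spike-in scaling 0 genes lay over 2-fold upward and 4 downward in Sox7 (+/−) cells, where the numbers over all probes moved from 2925 and 3701 to 1314 and 5524. Without replicate 3 of the Sox7 (+/−) XEN-like cells 2 lay upward and 3 downward there, with 2880 and 3749 over all probes. Of the other Klf genes on the array, Klf8, Klf11, Klf12 and Klf16 were tested and Klf1, Klf14 and Klf17 were too dim. None of the 4 was called between the genotypes in either cell type by the fit without a slide block. With so few genes this is near the share of all probes, 8.62% in ES cells and 7.51% in XEN-like cells. Klf8 was higher with Dex by 2.45 with 1 Sox7 allele and by 2.77 with none, with mean signals of 2.89 ± 0.07, 15.9 ± 2.30, 3.43 ± 0.07 and 23.5 ± 0.65 (SD, n = 3) from Sox7 (+/−) ES to Sox7 (−/−) XEN-like cells, in the order given above. Klf12 was not well above background on any Sox7 (+/−) XEN-like array and was at least 4.10-fold lower there than in Sox7 (+/−) ES cells, while its Sox7 (−/−) XEN-like arrays gave 0.165 on replicate 1 and not well above background on the other 2. Its value of −3.56 in ES cells with the slide as a block rests on that replicate against those 2 dim arrays, and its mean signals in ES cells were 0.386 and 0.379.

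Other genes of the pathways were read from lists. The lists were chosen with earlier results of these data known. The p-values and calls of list genes here and in the next paragraphs, those for Dex included, are not independent of that choice. Of 9 Sp genes, the family's nearest relatives, 7 were tested. Sp5 was well above background in Sox7 (+/−) ES cells (mean signal 1.88) but in no other group, and it was called lower without Sox7 in ES cells (adjusted p = 6.6e-06). Sp8 was called lower in ES cells without Sox7 (−1.11 ± 0.16, adjusted p = 0.00043) and its signal with Dex rose from 0.54 to 14.1 with 1 Sox7 allele and from 0.25 to 21.6 with none. In ES cells 0 of the 7 Sp genes were called higher and 2 lower, against 1.94% and 6.67% of all probes.

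Of 12 genes of the ES network, 10 were called lower with Dex in Sox7 (+/−) and 11 in Sox7 (−/−) cells and none higher. Over all probes 24.9% and 28.8% were called in the 2 genotypes, 10.9% and 14.5% higher and 14% and 14.3% lower. Their median log2 difference was −4.71 and −4.69, against 0.15 and 0.07 for all probes. Esrrb, an orphan nuclear receptor of the naive state, fell by 8.84 and by 5.49, and its level in XEN-like cells was higher without Sox7 by 4.63 ± 0.09 (adjusted p = 1.6e-09). Klf4, Klf6 and Klf13 were the only members of the Klf set above 0 in both genotypes in the same comparison, by the 75th percentile scaling.

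Of 8 genes of the Lif and Stat3 pathway, none was called between the genotypes in ES cells, near the share of all probes (8.62%). In XEN-like cells 2 were called lower (3.64% of all probes). These were Socs3, a feedback inhibitor of the pathway (−1.35 ± 0.17, adjusted p = 0.00032), and Pim1, a kinase and target of Stat3 (−1.33 ± 0.08, adjusted p = 2.3e-06). The receptor gene Lifr was lower, at −0.46 ± 0.08 in both cell types (adjusted p = 0.001 and 0.0017). Of 5 genes of the Erk5 and Mef2 pathway, which drives Klf2 in endothelium, 4 were tested and none was called between the genotypes in either cell type. With so few genes this is near the share of all probes, 8.62% in ES cells and 7.51% in XEN-like cells. Map2k5 was called higher with Dex in Sox7 (+/−) cells (1.19 ± 0.10, adjusted p = 2.9e-06), as was Mapk7, the gene of Erk5 (1.15 ± 0.07, adjusted p = 1.7e-07). In Sox7 (−/−) cells both differed by 0.94 (adjusted p = 1.5e-05 and 5.9e-07), just under the 2-fold limit, and neither response differed between the genotypes past the threshold (adjusted p = 0.21 and 0.14).

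Of 10 genes of the glucocorticoid response, 1 was called higher and 5 lower with Dex in Sox7 (+/−) cells (10.9% and 14% of all probes). In Sox7 (−/−) cells 1 was called higher and 4 lower (14.5% and 14.3% of all probes). Zbtb16, a transcription factor induced by glucocorticoids in many cells, was higher by 1.85 ± 0.32 and 1.24 ± 0.32 (adjusted p = 0.00054 and 0.0059). Fkbp5, a chaperone that glucocorticoids induce in most tissues, was lower, at −2.20 ± 0.13 and −2.09 ± 0.13 (adjusted p = 2.2e-07 and 2.5e-07). Tsc22d3, another such target, differed by 0.31 ± 0.47 and 0.25 ± 0.47 (adjusted p = 0.59 and 0.66), neither past the threshold. Nr3c1, the gene of the glucocorticoid receptor, was lower without Sox7, at −1.31 ± 0.09 in ES cells and at −1.14 ± 0.09 in XEN-like cells (adjusted p = 2.8e-06 and 1.1e-05).

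Of 10 genes of cofactors and ligases of Klf proteins none was called between the genotypes in either cell type. With so few genes this is near the share of all probes, 8.62% in ES cells and 7.51% in XEN-like cells. Ctbp2, a corepressor partner of Klf3, was lower with Dex, at −1.36 ± 0.07 with 1 Sox7 allele and at −1.79 ± 0.07 with none (adjusted p = 4.3e-08 and 4.5e-09). Of 12 immediate early genes, which Klf6 and Klf10 resemble in their response in many cells, 9 were tested. Between the genotypes 0 were called higher and 4 lower in ES cells (1.94% and 6.67% of all probes), among them Jun (−2.46 ± 0.10, adjusted p = 8.3e-08) and Atf3 (−1.98 ± 0.13, adjusted p = 1.9e-06). In XEN-like cells 0 were called higher and 2 lower (3.87% and 3.64% of all probes). These were Atf3 (−1.26 ± 0.13, limma, adjusted p = 6.3e-05) and Myc (−1.89 ± 0.09, adjusted p = 5.9e-07). For the difference in Dex response 4 were called higher and 1 lower (6.64% and 3.16% of all probes).

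The genes whose signal over the 12 arrays was most like that of 3 of the Klf genes were sought among 13245 genes, by Pearson's r and with names of unnamed or predicted transcripts left out. For Klf4 these were Gfpt2 (r = 0.991), Ndrg3 (0.99) and Bcl2l13 (0.989). For Klf2 they included Fzd10 and Pitpnc1, each at 0.998, and for Klf9 they were Upp1 (0.996), Zfp932 (0.995) and Pcbp3 (0.995). The 12 arrays fall into 4 groups, so such values mostly compare 4 group means.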

How the data were processed

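The authors hybridized RNA to 12 one-colour Agilent arrays. The deposited intensity values came from Agilent Feature Extraction 10.7.3.1, whose processed signal has background subtracted. A deposited table of linear intensity values lay within 0.5% of the mean spot signal on all 12 arrays, with no background subtracted. It was read after log2 with no centring or scaling between arrays, so differences in array brightness stay in its values. Each processed signal, after log2, was centred on its array's 75th percentile (251.8 to 413.8 intensity units). Spots flagged as outliers (139 to 190 per array) were left out and spots of a probe averaged. The 25940 probes with signal well over background throughout a group were fitted with limma 3.58.1 (R 4.3.3), using 4 group means and Benjamini-Hochberg adjustment. A call needed an adjusted p under 0.05 and over 2-fold, and Dex differences of the 10 genes were counted by size alone. The brightest probe of a gene was used. The members, lists and motifs were chosen with earlier results of these data known. Same-numbered arrays had deviations correlated between −0.051 and 0.126, so numbers were not treated as pairs. Alternatives were normexp, quantile and spike-in scaling (8 probes), the deposited table, 2 other filters, slide and replicate blocks, all probes of a gene averaged, slide 2 alone, no minimum fold, and leaving out each array. The fit was tested on simulated data. The number of arrays limits the precision.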

Additional observations from a re-analysis of the deposited data

Results flagged for a closer look

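The genotypes differed in their Dex response for 3 Klf genes by the test of the difference itself. That test is not independent of the choice of genes, which was made with the Dex differences known. The difference, Sox7 (−/−) minus Sox7 (+/−), was 1.03 (log2) for Klf7, −1.56 for Klf3 and −2.09 for Klf2. For Klf7 the Sox7 (−/−) ES cells were low and both XEN-like groups nearer each other, for Klf2 the Sox7 (−/−) ES cells were highest and the Sox7 (−/−) XEN-like cells lowest, and for Klf3 replicate 3 of the Sox7 (+/−) XEN-like cells lay apart from the other 2. The part of slide in these values was not tested beyond the slide block, with which they were 1.06, −1.92 and −2.49.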

How the results depend on the processing

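Of 640 values of the 10 genes between the genotypes under 22 alternatives, 599 kept their direction and stayed called or not called, 17 turned sign, 17 lost a call and 7 gained one, and none of those that turned sign was called. Of the 599, 55 lost and 11 gained an adjusted p under 0.05 alone. With no minimum fold the number of genes called was 8 in ES cells, 5 in XEN-like cells and 6 for the difference in response; this was not run for the Dex comparisons, whose values carry no test. In XEN-like cells it was 1 with normexp (lower), 1 in the deposited table (higher) and 1 on slide 2 alone (lower), where 2 were lower before, and 3 with spike-in scaling, 1 of them higher. In ES cells the slide block gave 4 and spike-in scaling 2, and for the difference 2 with normexp and 4 in the table. Leaving out an array gave 3 to 3 in ES cells, 2 to 3 in XEN-like cells, 2 to 3 for the difference and 4 to 5 over 2-fold with Dex in either genotype. With the replicate block it was 3, 2, 3, 4 and 4, as without it, and no label says what the numbers share.

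Sign turned in XEN-like cells for Klf6 with normexp (0.03), spike-in scaling (0.17) and the table (0.38), Klf7 in the table (0.09), Klf9 with quantile normalization (−0.02) and without Sox7 (+/−) XEN-like replicate 1 (−0.01, range over arrays left out −0.01 to 0.10), and Klf13 without replicate 3 (−0.01, range to 0.38). For the difference in response, with spike-in scaling and the table, it turned for Klf5 (0.02, 0.15), Klf9 (0.20, 0.24), Klf13 (0.13, 0.21) and Klf15 (0.19, 0.19), and for Klf10 with the slide block (−0.15) and without Sox7 (+/−) XEN-like replicate 3 (−0.38, range to 0.40). With Dex in Sox7 (+/−) cells it turned for Klf13 in the table (−0.01) and for Klf15 with spike-in scaling (−0.38), in the table (−0.33) and without replicate 1 (−0.04, range to 0.28). The cause of these changes was not tested. Dim probes have only bounds.

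Of the other Klf genes tested, Klf12 turned sign in ES cells with normexp (0.04), quantile normalization (0.07), the table (0.04) and without Sox7 (+/−) ES replicate 2 (0.04, range −0.08 to 0.04). In XEN-like cells it did so with normexp (−0.12), the slide block (−0.72), slide 2 alone (−0.72) and without Sox7 (−/−) XEN-like replicate 1 (−0.72, range to 1.07), and for the difference in response with normexp (−0.15) and without that array (−0.69, range to 1.09). With the slide block Klf12 passed in ES cells (−3.56) and for the difference (2.84), values that rest on that array against 2 dim ones. Klf11 turned with normexp in XEN-like cells (0.00), for the difference (−0.26) and with Dex in Sox7 (+/−) cells (0.04), and for the difference on leaving out any of 6 arrays (range −0.09 to 0.20). Klf16 turned in the table in XEN-like cells (0.14), for the difference with spike-in scaling (0.29), the table (0.24), the slide block (0.06) and without Sox7 (+/−) XEN-like replicate 3 (0.04, range −0.20 to 0.04), and with Dex in Sox7 (+/−) cells in the table (−0.17) and with spike-in scaling (−0.24). The cause of these changes was not tested.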
